A study of Mus musculus with 24 samples.

Results

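SmcHD1-mutant (KO) and wild-type (WT) cells were compared at day 7 of neural differentiation, over every gene outside the X and Y chromosomes with a mean of at least 1 FPKM in the 6 libraries of that day. FPKM counts the fragments of a gene per kilobase of its transcript and relative to all mapped fragments. Of 23119 genes listed, 11567 met this rule, and 11566 were tested, because the estimate of Serbp1 had failed. All 1091 genes on X or Y were listed at 0, and 10461 of the 22028 genes outside X and Y lay below the limit. The nearest genes outside the limit were Parp10, Zfp575 and P2rx7, at 0.998 FPKM each, and the nearest inside it were Col11a2, Cd248 and Ttpa, at 1.00 FPKM each.

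RNA-seq covered both genotypes at 4 stages (mESCs, day 7, day 9 and neural stem cells, NSCs), with 3 libraries in each of the 8 groups and 24 in all. Day 7 and day 9 cells came from 1 protocol and NSCs from another, so NSCs are not a later point of the day 7 culture. WT cells were JB4/EI7HZ2, a female hybrid mESC line from a JF1 mother and a B6 father, and KO cells were the same line with Smchd1 mutated by CRISPR–Cas9. Both genotypes carried a zeocin resistance gene at Hprt on the JF1 X and a neomycin resistance gene at Eif2s3x on the B6 X. The media of mESCs and NSCs contained G418 and zeocin, so that cells with both X chromosomes were selected. The study's methods name neither drug in the media of the day 7 and day 9 protocol. Both were grown with MEK and GSK3 inhibitors and LIF, turned into epiblast-like cells with Activin A and FGF2, and then aggregated as embryoid bodies that form early neurectoderm (day 7 and day 9). NSCs were derived from mESCs by adherent culture, aggregation and outgrowth, and kept in FGF2 and EGF. Each genotype was 1 line, so genotype and line cannot be told apart. The study describes the replicate experiments of this line and its differentiated cells as biologically independent. P-values rest on the spread between libraries of the same group, pooled over all 8 groups, and not on a spread between lines.

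SMCHD1 is a non-canonical member of the SMC family, the ATPases of cohesin and condensin, and is best known for keeping genes of the inactive X and of some imprinted clusters silent. In the embryo, the neural plate receives positional signals from its neighbours. The node and the notochord lie under its midline, and they and the floor plate secrete SHH, which sets ventral neural fates. WNT, FGF and retinoic acid give posterior character, whereas OTX2 and LHX2 mark the forebrain and EN1, WNT1 and PAX2 mark the border of midbrain and hindbrain.

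The stage label was checked in both genotypes. Of 24 tested neural progenitor genes, 22 were higher and 1 lower at day 7 than in mESCs in WT cells, and 20 were higher and 2 lower in KO cells, with median log2 differences of 2.51 and 2.55. Of 27 tested pluripotency genes, 21 were lower in WT and 22 in KO cells, and 3 and 5 were higher. Sox2 stood at 148, 134 and 131 FPKM in the WT libraries and at 163, 162 and 148 in the KO libraries. Relative read numbers, worked out from the worth of 1 read in low genes, ranged from 0.959 to 1.24, and read totals were not used here. WT libraries had 11598 to 11654 genes at 1 FPKM or more, and KO libraries had 11346 to 11409. WT replicate 1 stood nearest to the KO libraries, with a mean correlation of 0.973 to them and of 0.977 to the other WT libraries. Values without it are given for some results only.

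Smchd1 itself (chr17:71693834-71824683, mm9, as are all positions of genes) was at 26.4, 25.0 and 22.1 FPKM in the WT libraries and at 3.63, 3.95 and 3.82 FPKM in the KO libraries. No KO library came near a WT library. The difference was −2.41 on the log2(FPKM + 1) scale (SE 0.127, adjusted p = 7.5e-11), and it was −2.07 in mESCs and −2.18 at day 9. In all, 494 of 11566 genes were called at an adjusted p under 0.05, or 4.27%. Of these, 153 were higher in KO cells (1.32%) and 341 were lower (2.95%). At least 2-fold changes, on the same scale, were found for 45 genes that rose and 178 that fell, and at least 4-fold changes for 5 and 41. The log2(FPKM + 1) scale understates the change of low genes. The libraries of the 2 genotypes did not overlap for 24.4% of all tested genes and for 485 of the 494 called. Called higher genes had a median of 3.25 FPKM in WT and 9.18 FPKM in KO cells, and called lower genes a median of 7.75 and 2.26 FPKM. The median log2 difference of all tested genes was 0.00020.

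Genes of the node, notochord and axial mesendoderm had the lowest median of any list but that of the prolactin cluster, which was added later. All 18 of the 18 listed genes outside X and Y were tested, 11 were called lower (61.1%) and none higher, and their median log2 difference was −1.80, against 0.00020 over all genes. The 11 were T, Noto, Foxa2, Shh, Chrd, Nog, Cer1, Gsc, Foxj1, Krt8 and Krt18, of which Krt18 was not called in a fit of the 6 day 7 libraries alone (adjusted p = 0.0939). Summed over the list, WT replicates 1, 2 and 3 had 522, 886 and 923 FPKM and the KO replicates had 258, 174 and 180. Fewer cells of a type and less RNA per cell cannot be told apart in bulk RNA.

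T (chr17:8627288-8635361), the transcription factor of the primitive streak and notochord, was at 52.1, 132 and 124 FPKM in WT and at 0.719, 2.03 and 2.02 FPKM in KO libraries, a log2 difference of −5.26 (SE 0.442, adjusted p = 2.07e-07). Noto, a homeobox gene of the node and notochord, was at 4.88, 8.40 and 4.89 FPKM in WT, and in KO cells it was listed at 0 in replicates 1 and 3 and at 0.297 in replicate 2. Foxa2, which is needed for the node and the floor plate, was at 15.1, 37.8 and 35.9 FPKM in WT and at 0.344, 1.40 and 0.431 FPKM in KO libraries. The lowest WT value of each of these genes lay far above the highest KO value, although WT replicate 1 was the lowest WT library for T and Foxa2. Chrd and Nog, the secreted BMP antagonists of the organizer, fell by 2.71 and 2.33 on the log2 scale (adjusted p = 1.59e-08 and 0.00034). Cer1, a secreted inhibitor of NODAL, BMP and WNT, was at 40.9, 101 and 66.2 FPKM in WT and at 0.215, 3.10 and 2.29 FPKM in KO libraries. Not every gene of this tissue passed the test. Lefty1 and Lefty2, the NODAL inhibitors, had log2 differences of −0.40 and −0.45 (adjusted p = 0.388 and 0.254).

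Primitive streak and early mesoderm genes and endoderm genes moved in the same direction. These lists share members, so their counts are not separate. T and Gsc stand in the axial and mesoderm lists, and Foxa2 and Cer1 in the axial and endoderm lists. Foxa2 and Shh also stand in the list of floor plate and ventral genes. Of 25 listed streak and mesoderm genes, 15 were tested, 10 were called lower (66.7%) and none higher, with a median of −1.22, and the other 10 lay below 1 FPKM. Beside T and Gsc they included Eomes, Foxc2, Lhx1 and Cdx2. Cdx2, a caudal homeobox gene, was at 4.60, 6.15 and 4.62 FPKM in WT and at 0.341, 0 and 0.320 FPKM in KO libraries. Foxc2, a paraxial mesoderm gene, was at 1.39, 6.83 and 10.3 FPKM in WT and at 0.0657, 0.0824 and 0 FPKM in KO libraries. Both genes were separated without overlap, with adjusted p = 8.02e-08 and 0.000405. Fgf8 was not called (log2 difference −1.11, adjusted p = 0.0681), and Dll1 had a log2 difference of 0.56 (adjusted p = 0.226). Leaving out 1 library at a time left 8 to 11 of the mesoderm genes called. Of 24 listed endoderm genes, 14 were tested, 8 were called lower and none higher, with a median of −1.45. Sox17, an endoderm transcription factor, was at 2.58, 8.44 and 7.96 FPKM in WT and at 0.0566, 0.0710 and 0 FPKM in KO libraries. Trh, the most abundant endoderm gene tested, was at 306, 429 and 379 FPKM against 343, 327 and 270 FPKM, and its libraries overlapped.

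Several ventral neural tube genes were lower, as were Shh and its targets Gli1 and Ptch1. Of 23 listed floor plate and ventral genes, 17 were tested, 9 were called lower and none higher, with a median of −1.05. Shh (chr5:28783380-29045749), the ligand, was at 4.27, 21.0 and 24.2 FPKM in WT and at 0.0672, 0.169 and 0.168 FPKM in KO libraries. Gli1, the transcription factor that is itself a target of the pathway, was at 8.51, 20.6 and 23.6 FPKM in WT and at 1.68, 0.541 and 1.38 FPKM in KO libraries. Its locus overlaps Arhgap9, a gene of low level. Ptch1, the receptor and a second target, was at 32.1, 60.2 and 50.5 FPKM in WT and at 11.9, 10.7 and 9.66 FPKM in KO libraries. For all 3 genes every KO library lay below every WT library, and the adjusted p was 3.53e-05, 8.05e-07 and 1.11e-05. The pathway's transducers behaved otherwise. Smo, the receptor subunit that PTCH1 holds inactive, was at 47.9, 56.0 and 54.7 FPKM against 62.4, 62.1 and 65.5 FPKM, and the difference was not called (adjusted p = 0.432). Across 17 tested pathway genes 4 were lower, 1 (Scube2) was higher, and the median was 0.21. Scube2, a secreted protein that helps release SHH, rose by 1.44 (adjusted p = 0.0021), a call that was lost with a pseudocount of 0.1 (adjusted p = 0.0847). Nkx6-1, a ventral progenitor gene, was at 8.70, 24.4 and 24.8 FPKM in WT and at 9.57, 6.39 and 8.21 FPKM in KO libraries. In WT replicate 1 it therefore stood within the KO range, and the gene was not called (adjusted p = 0.408). Nkx6-2, whose locus overlaps Inpp5a, fell by 3.17 (adjusted p = 0.00205), and the same difference was not called in a fit of the 6 day 7 libraries alone (adjusted p = 0.16).

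**Figure D1:**
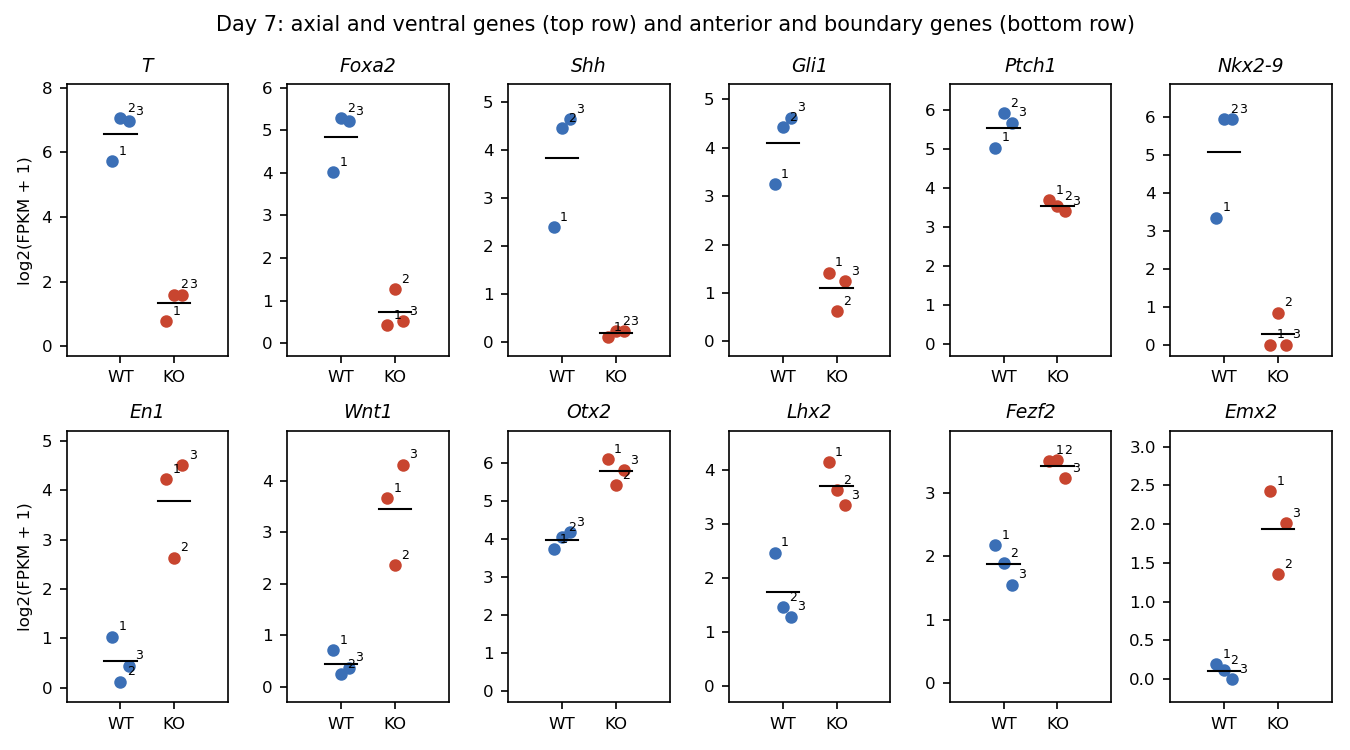
Each panel shows log2(FPKM + 1) of 1 gene in the 3 WT (blue) and 3 KO (red) libraries at day 7, numbered by replicate, with a bar at the group mean and an axis of its own. The axial and ventral genes of the top row are lower in every KO library, WT replicate 1 is the lowest WT library in each of them, and the anterior and boundary genes of the bottom row are higher in every KO library.

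Some Hox genes, which give posterior positions, were also lower. Of 39 listed Hox genes, 10 were tested, 6 were called lower and none higher, with a median of −1.14, and 29 lay below 1 FPKM. Hoxb9, a trunk gene, was at 1.12, 4.46 and 8.22 FPKM in WT and was listed at 0 in all 3 KO libraries (adjusted p = 0.000841). Hoxa3, a hindbrain gene whose locus overlaps other Hoxa genes, was at 3.07, 4.93 and 6.39 FPKM in WT and at 0.637, 1.69 and 1.68 FPKM in KO libraries. Hoxa2 was at 31.1, 30.6 and 31.7 FPKM in WT and at 14.0, 32.0 and 26.1 FPKM in KO libraries, so its groups overlapped. The Hox count was 2 in a fit of the day 7 libraries alone and 4 without WT replicate 2.

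Of 22 listed genes of retinoic acid synthesis, breakdown and response, 20 were tested, 7 were lower, none was higher and the median was −0.44. Rdh10, which makes retinaldehyde, fell by 0.92 (adjusted p = 0.00253). Cyp26b1, which breaks retinoic acid down, was at 14.0, 17.9 and 15.9 FPKM in WT and at 2.65, 4.48 and 3.92 FPKM in KO libraries. Genes of synthesis and of breakdown were thus both among those that fell. Aldh1a2, which makes retinoic acid, fell by 2.29 (adjusted p = 0.000497), and the same difference was not called in the fit of day 7 libraries alone (adjusted p = 0.0957).

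Forebrain genes formed the list with the highest median. Of 30 listed genes, 15 were tested, 9 were called higher and 1 (Eomes) lower, and the median was 1.42, while the other 15 lay below 1 FPKM. Otx2 (chr14:49277859-49282547), a homeobox gene of forebrain and midbrain, was at 12.3, 15.4 and 17.1 FPKM in WT and at 67.6, 41.7 and 55.5 FPKM in KO libraries. Emx2, a gene of the dorsal telencephalon, was at 0.146, 0.0846 and 0 FPKM in WT and at 4.36, 1.56 and 3.03 FPKM in KO libraries. All KO libraries lay above all WT libraries in both genes, with log2 differences of 1.79 and 1.82 and adjusted p = 0.000141 and 3.33e-05. The other genes called higher included Lhx2, Otx1, Fezf2, Dmrta2 and Wnt8b. Fezf2, a forebrain zinc-finger gene, was at 3.50, 2.70 and 1.93 FPKM in WT and at 10.3, 10.4 and 8.39 FPKM in KO libraries. Sfrp2 and Nr2f1, the most abundant members that were not called, had log2 differences of −0.09 and −0.40. Leaving out 1 library at a time left 9 or 10 genes called.

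At the midbrain-hindbrain boundary 22 of 27 listed genes were tested, with 6 higher, 2 lower and a median of 0.47. En1 (chr1:122499064-122504568) was at 1.04, 0.0862 and 0.364 FPKM in WT and at 17.8, 5.21 and 21.8 FPKM in KO libraries. Wnt1, the ligand of the boundary, was at 0.647, 0.187 and 0.296 FPKM in WT and at 11.7, 4.12 and 18.8 FPKM in KO libraries. KO replicate 2 was the lowest KO library for both genes and still lay above every WT library. Pax2, a paired-box gene of the same territory, rose by 1.52 (adjusted p = 0.000388). The 2 lower genes were Lhx1 and Sp5, and Lhx1, which is also a gene of the organizer, fell by 2.43 (adjusted p = 8.36e-07). Sp5, a WNT target, fell by 1.09 (adjusted p = 0.00676), and its adjusted p was 0.0727 without WT replicate 2 and 0.0617 without KO replicate 2. Irx3 and Meis2, the most abundant members, differed by −0.09 and −0.14 on the log2 scale and were not called.

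Among dorsal neural tube genes 12 of 24 listed were tested, with 3 higher (Msx3, Rspo1 and Gdf10), 2 lower (Lmx1a and Rspo3) and a median of 0.62. Msx3, a dorsal homeobox gene, was at 0.925, 0.972 and 0.821 FPKM in WT and at 3.02, 3.99 and 3.98 FPKM in KO libraries. Rspo3, which amplifies WNT signalling, was at 5.91, 8.68 and 8.48 FPKM in WT and at 0.378, 0.663 and 0.662 FPKM in KO libraries. The libraries did not overlap in either gene, and the differences had opposite signs, 1.28 and −2.46. Gdf10, a BMP-family ligand, rose by 0.83 (adjusted p = 0.00842), and its adjusted p was 0.0704 without WT replicate 2 and 0.0648 without KO replicate 3.

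**Figure D2:**
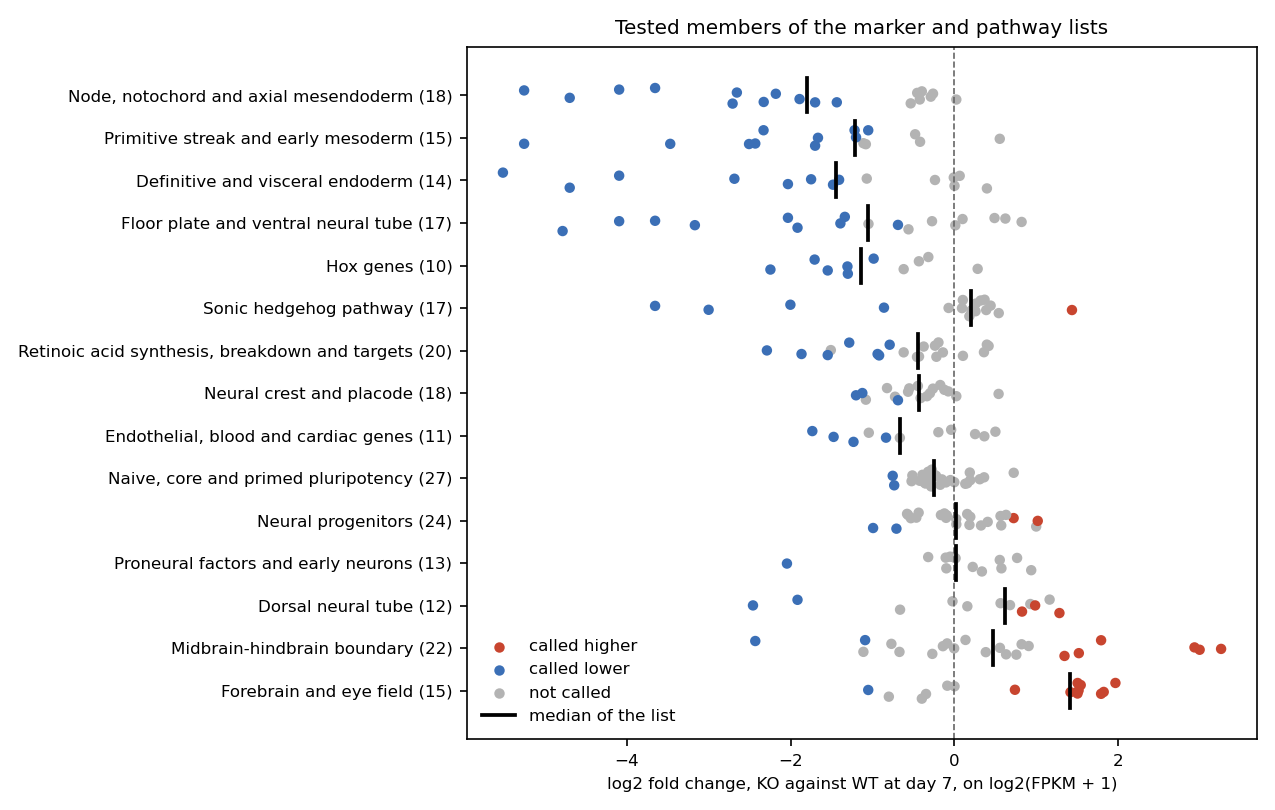
Each point is a tested gene of 1 of 15 marker or pathway lists, placed by its log2 fold change of KO against WT at day 7 and coloured by its call, with the list's median as a black bar and the number of tested genes in brackets. Node, mesoderm, endoderm, ventral and Hox genes lie mostly to the left of 0 and forebrain genes mostly to the right (medians −1.80, −1.22, −1.45, −1.05, −1.14 and 1.42).

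The lists of signalling pathways held called genes at shares of 27.0% (WNT), 17.4% (BMP), 10.0% (NODAL and Activin) and 8.33% (FGF) of their tested members, against 4.27% of all genes. Of 37 tested WNT genes of 51 listed, 4 were higher (Wnt1, Wnt8b, Rspo1 and Frzb), 6 were lower and the median was 0.10. Dkk1, a secreted WNT inhibitor, was at 5.60, 20.9 and 19.6 FPKM in WT and at 1.06, 0.409 and 0.714 FPKM in KO libraries, a log2 difference of −3.08 (adjusted p = 1.8e-06). Of 23 tested BMP genes of 34 listed, 4 (Bmp2, Chrd, Nog and Fstl1) were lower and none higher, with a median of −0.26. Bmp2, a ligand, was at 2.05, 3.85 and 3.79 FPKM in WT and at 0.0717, 0.180 and 0 FPKM in KO libraries. The products of Chrd, Nog and Fstl1 are secreted and bind ligands of the same superfamily. Of 20 tested NODAL and Activin genes of 22 listed, Cfc1 and Cer1 were lower and none was higher. Cfc1, a NODAL co-receptor, was at 7.13, 14.6 and 14.6 FPKM in WT and at 0.991, 0.746 and 0.248 FPKM in KO libraries. Of 24 tested FGF genes of 30 listed, Fgfr2 was higher and Fgf5 lower. The call of Fgfr2 was lost without WT replicate 2 or KO replicate 1 (adjusted p = 0.0704 and 0.0622), and that of Fgf5 without WT replicate 1 or 2 or KO replicate 2 or 3 (0.122, 0.179, 0.074 and 0.167).

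General neural, pluripotency and housekeeping lists had medians from −0.25 to 0.02. Of 24 tested neural progenitor genes Sox1 and Hes3 were higher and Vim and Hey1 were lower, and the median was 0.02. These 4 made up 16.7% of the list, and the libraries of the genotypes did not overlap for 14 of its genes (58.3%), against 4.27% and 24.4% of all genes. No gene of the list was called without WT replicate 3. Of 13 tested proneural and early neuron genes of 32 listed, Mnx1, a motor neuron gene, was lower. Tubb3, a neuronal tubulin, was at 55.0, 45.2 and 41.1 FPKM in WT and at 84.1, 87.6 and 70.0 FPKM in KO libraries, without overlap, and was not called (adjusted p = 0.446). Of 27 tested pluripotency genes, 2 (Fgf5 and Cdh1) were lower, and none was called without WT replicate 2. In the limma fit no gene was called among 33 tested glycolysis and hypoxia genes, 24 of the integrated stress response, 21 of cholesterol synthesis and 9 methylation-silenced germline genes. Of these, 4, 2, 2 and 3 had an unadjusted p under 0.05. Over all tested genes 4.27% were called and 14.6% had an unadjusted p under 0.05, so lists of this length would hold few calls. Of 35 tested cell cycle genes 3 (8.57%) were lower, namely Ccnd2, Cdkn1a and Ccng1. Cdkn1a was at 27.0, 36.1 and 34.3 FPKM in WT and at 15.2, 14.3 and 14.8 FPKM in KO libraries. Ccng1 was at 43.4, 60.1 and 48.9 FPKM in WT and at 21.3, 28.6 and 22.0 FPKM in KO libraries. The log2 differences were −1.07 and −1.05 (adjusted p = 0.00389 and 8.03e-05). Of the lists of other cell types, 3 of 18 tested neural crest genes (Ret and Snai1 among them), 4 of 22 surface ectoderm and epithelial genes (Krt8, Krt18, Cldn6 and Cdh1) and 4 of 11 endothelial, blood and cardiac genes (Flt1, Sox18, Cdh5 and Etv2) were lower, and none was higher. With 1 library left out the counts called ranged from 1 to 5, 3 to 6 and 2 to 5, and were lowest without WT replicate 2. Flt1, a VEGF receptor, was at 3.49, 4.93 and 3.69 FPKM in WT and at 0.491, 0.786 and 0.273 FPKM in KO libraries. Of 36 tested collagen and matrix genes Vcan, Col5a2 and Lama1 were lower and none was higher, and without WT replicate 2 the adjusted p of Lama1 was 0.186.

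The gene classes that SMCHD1 is known for were examined outside the X. Of 49 listed autosomal imprinted genes 40 were tested, 3 entries were higher and 3 were lower, and the median was −0.13. The called entries made up 15% of those tested, against 4.27% of all genes. The libraries of the genotypes did not overlap for 21 of the list's genes (52.5%), against 24.4% of all genes. Plagl1, a paternally expressed zinc-finger gene, was at 16.7, 31.6 and 27.3 FPKM in WT and at 4.19, 5.71 and 4.14 FPKM in KO libraries. Peg3, whose locus overlaps Peg3as, was at 46.2, 60.0 and 54.3 FPKM in WT and at 19.6, 19.3 and 17.7 FPKM in KO libraries. Both fell without overlap, by 2.17 and 1.45. The third lower gene was Nap1l5, which lies within Herc3. The entry of Snrpn and Snurf was at 191, 175 and 155 FPKM in WT and at 307, 285 and 218 FPKM in KO libraries, a log2 difference of 0.62 (adjusted p = 0.0053). Magel2 rose by 0.82 (adjusted p = 0.00503), a difference that was not called in the fit of day 7 libraries alone (adjusted p = 0.0707). The Mirg entry rose by 0.57 (adjusted p = 0.0312), which became 0.211 without WT replicate 2, 0.148 without KO replicate 1 and 0.163 without KO replicate 3. The Pcdha and Pcdhg genes form a single entry at 55.9, 62.0 and 53.4 FPKM in WT and at 48.6, 44.6 and 51.9 FPKM in KO libraries, which was not called (adjusted p = 0.293). Of 23 listed clustered protocadherin entries only this 1 was tested, and the Pcdhb genes lay below 1 FPKM. Summed over all 23, WT libraries had 57.0, 63.7 and 54.8 FPKM and KO libraries 55.9, 53.3 and 60.9 FPKM. What the Pcdhb genes added to the tested entry was thus larger in every KO library than in any WT library, and was not tested. Smchd1 was the single gene called of 20 tested genes of SMC complexes, CTCF and their partners (5%). Of 35 genes of DNA methylation and Polycomb only Rybp was called (2.86%), and both shares lie near the 4.27% of all genes. The adjusted p of Rybp was 0.0431, and it lay between 0.0671 and 0.271 when any single library but KO replicate 1 was left out.

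A further set of reduced genes belonged to motile cilia, the beating cilia that node cells also carry. This list was drawn up after the values had been seen, so its counts describe and do not test. Of 65 listed genes 39 were tested, 13 were called lower and none higher, with a median of −0.47. Foxj1 (chr11:116192018-116196668), the transcription factor that switches on motile cilia genes, was at 9.89, 11.8 and 5.31 FPKM in WT and at 0.698, 1.40 and 1.31 FPKM in KO libraries. Enkur, a ciliary protein, was at 4.22, 6.71 and 3.43 FPKM in WT and at 0, 0.208 and 0.208 FPKM in KO libraries. Dnajb13, of the radial spokes, was at 3.17, 4.52 and 5.46 FPKM in WT and at 1.06, 0.442 and 0.661 FPKM in KO libraries. In these 3 genes all WT libraries lay above all KO libraries. WT replicate 1 was the lowest WT library for Dnajb13 and not for Foxj1 or Enkur. Summed over the list, WT replicates 1, 2 and 3 had 209.5, 271.7 and 226.3 FPKM and the KO replicates 147, 156.5 and 151.7 FPKM. The other lower genes included Ccdc164 (a dynein regulatory subunit also known as Drc1), Armc3, Dynlrb2, Fam183b, Nme5 and Tppp3. The count was 7 with a pseudocount of 0.1, 8 with the limit of 1 FPKM set over 24 libraries, and 10 to 13 when 1 library was left out.

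RFX factors, which work beside FOXJ1, bind a sequence known as the X-box. The letters GTTNCC, any 2 bases and then GNNAC were searched on both strands in RefSeq promoters (GRCm38.p6, 250 bases before to 50 after each start), where N is any base, and the search was also chosen after the values had been seen. Promoters were found for 27 of the 39 tested cilia genes. The letters occurred in 8 of their 30 promoters (26.7%) and in 504 of all 32851 promoters (1.53%). Of 7 lower cilia genes with a promoter, Dynlrb2 and Fam183b held a match, and so did Lrrc23, Mns1, Spag16, Stk36 and Tekt2 among cilia genes that were not called. These 2 promoters are shown with the matches in capitals, at chr8:116504765-116505064 on the plus strand and chr11:58801911-58802210 on the minus strand.
Dynlrb2: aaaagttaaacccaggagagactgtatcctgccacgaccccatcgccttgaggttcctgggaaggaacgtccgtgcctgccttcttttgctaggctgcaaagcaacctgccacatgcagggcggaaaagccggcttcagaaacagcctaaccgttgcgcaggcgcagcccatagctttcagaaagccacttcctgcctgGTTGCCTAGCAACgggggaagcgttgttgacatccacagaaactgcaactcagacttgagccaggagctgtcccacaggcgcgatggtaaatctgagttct
Fam183b: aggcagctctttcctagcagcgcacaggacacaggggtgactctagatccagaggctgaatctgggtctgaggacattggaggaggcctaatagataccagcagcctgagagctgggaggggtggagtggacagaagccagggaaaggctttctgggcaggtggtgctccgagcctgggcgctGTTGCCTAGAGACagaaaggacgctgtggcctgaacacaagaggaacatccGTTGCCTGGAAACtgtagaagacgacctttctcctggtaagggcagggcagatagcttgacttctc
The first match begins 51 bases before the start of Dynlrb2 and 67 bases before that of Fam183b. A match describes these letters only. Dynlrb2, a dynein light chain, was at 3.92, 6.48 and 5.47 FPKM in WT and at 1.59, 1.33 and 0 FPKM in KO libraries, and Fam183b was at 5.87, 12.96 and 7.61 FPKM in WT and at 1.38, 3.47 and 2.31 FPKM in KO libraries. Both groups of libraries were apart in each gene, with log2 differences of −1.77 and −1.52 (adjusted p = 0.0025 and 0.00305), and both calls were lost with a pseudocount of 0.1.

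Genes of placental families were lower as well, with another order of the WT libraries than that of the axial genes. This list was also drawn up after the values had been seen. Of 56 listed genes 13 were tested, and 12 were lower, with a median of −1.69. They include the prolactin family of hormones, encoded in a cluster on chromosome 13 and made by trophoblast giant cells and spongiotrophoblast. Of its 25 listed genes 6 were tested and all 6 were lower. Summed over the 25, the WT replicates had 70.6, 54.7 and 43.3 FPKM and the KO replicates 13.2, 3.24 and 5.75 FPKM. Replicate 1 was thus the highest library in both genotypes. Summed over the axial list, KO replicate 1 was likewise the highest KO library, but WT replicate 1 was the lowest WT library. For T, Foxa2, Cer1 and Shh, however, KO replicate 1 was the lowest KO library, so other members carried its sum. Prl7d1 (chr13:27800867-27808606) was at 11.0, 8.41 and 5.92 FPKM in WT and at 1.04, 0.262 and 0.783 FPKM in KO libraries, and Prl4a1 was at 15.9, 8.73 and 10.9 FPKM and at 3.32, 0.320 and 1.28 FPKM. Outside that cluster, Ceacam9 was at 24.4, 15.1 and 11.5 FPKM in WT and at 3.39, 1.06 and 2.30 FPKM in KO libraries. None of these 3 genes overlapped between genotypes (adjusted p = 2.73e-05, 7.18e-05 and 2.67e-05). Members of these families resemble each other in sequence, so reads could have been divided between them. The prolactin genes were listed at 0 in all mESC libraries, and at day 9 their sum ranged from 36.0 to 112 FPKM in WT and from 15.4 to 34.2 FPKM in KO libraries.

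**Figure D3:**
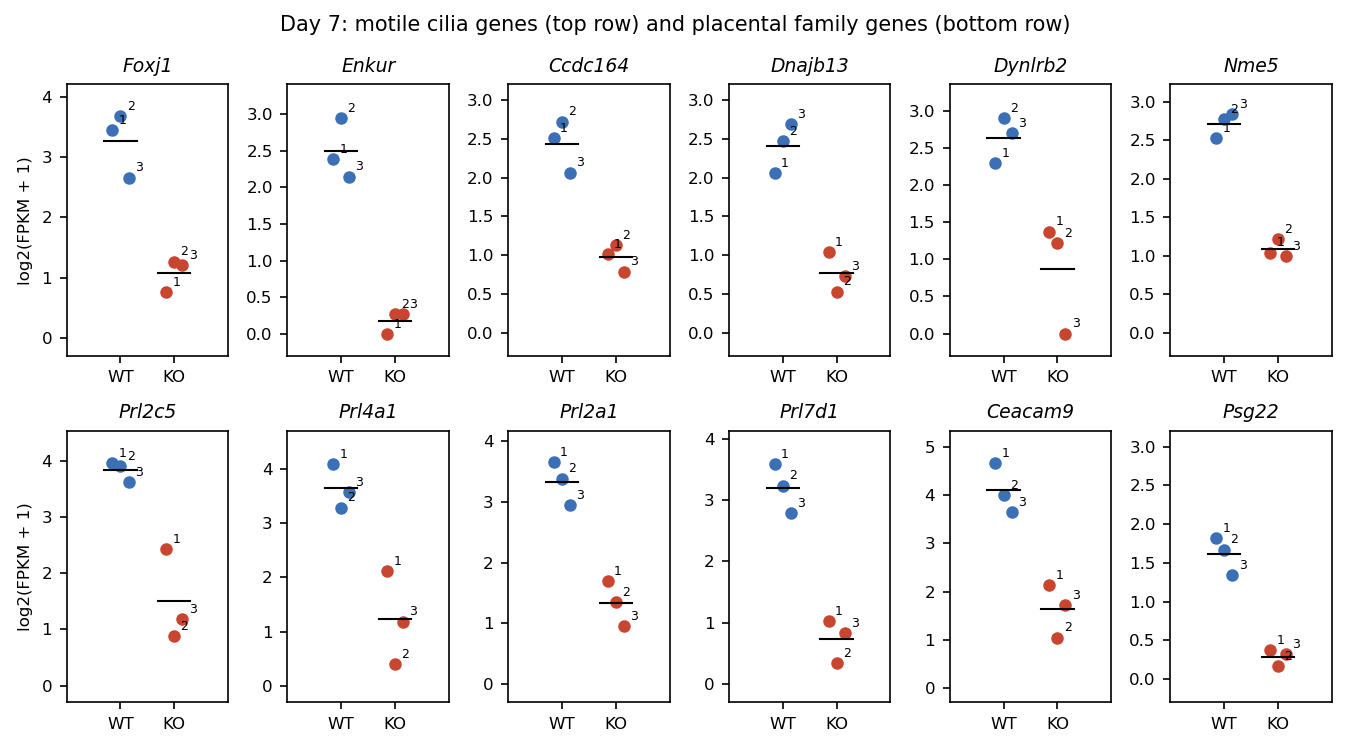
Each panel shows log2(FPKM + 1) of 1 gene in the 3 WT (blue) and 3 KO (red) libraries at day 7, numbered by replicate, with a bar at the group mean and an axis of its own. All 12 genes are lower in every KO library, and in the placental genes of the bottom row replicate 1 is the highest WT library and the highest KO library.

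The lower genes were not spread evenly over the genome. In windows of 10 Mb with at least 10 tested genes (235 windows), the lowest medians were those of the last 2 windows of chromosome 3. In the first of them (140 to 150 Mb) 17 of 23 tested genes were lower, all 23 differences were below 0, and the median was −0.78. In the second (150 to 160 Mb) 9 of 21 were lower, with a median of −0.54, while the medians of all other windows lay between −0.32 and 0.22. Together 26 of 44 genes (59.1%) were lower and none was higher, against 2.95% of all genes. These windows were picked after the values had been seen, so this is a description. They hold 7.63% of all lower calls, and without them 468 genes were called, 315 of them lower. Sh3glb1 (chr3:144351808-144383287), which binds membranes in autophagy, was at 19.5, 19.5 and 19.5 FPKM in WT and at 8.89, 9.54 and 7.75 FPKM in KO libraries. Gng5, a G protein subunit, was at 352, 414 and 459 FPKM in WT and at 216, 197 and 175 FPKM in KO libraries, and Prkacb, a catalytic subunit of protein kinase A, at 20.4, 20.7 and 19.5 FPKM and at 10.2, 11.0 and 10.4 FPKM. In each of these 3 genes every KO library lay below every WT library. As a share of the WT mean, the median of the 44 genes was 99.8%, 100.1% and 102.6% in the WT libraries and 56.0%, 61.1% and 59.1% in the KO libraries. The same median of KO over WT was 61.5% in mESCs, 60.2% at day 9 and 86.3% in NSCs, over the 39, 43 and 41 genes with a WT mean of at least 1 FPKM at that stage. At day 9, 22 of the 44 genes were called lower and 3 higher, and in NSCs 6 were called lower and none higher. Of the 25 genes lower in KO cells both at day 7 and in mESCs, 18 lay here. DNA copy number was not analysed here.

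**Figure D4:**
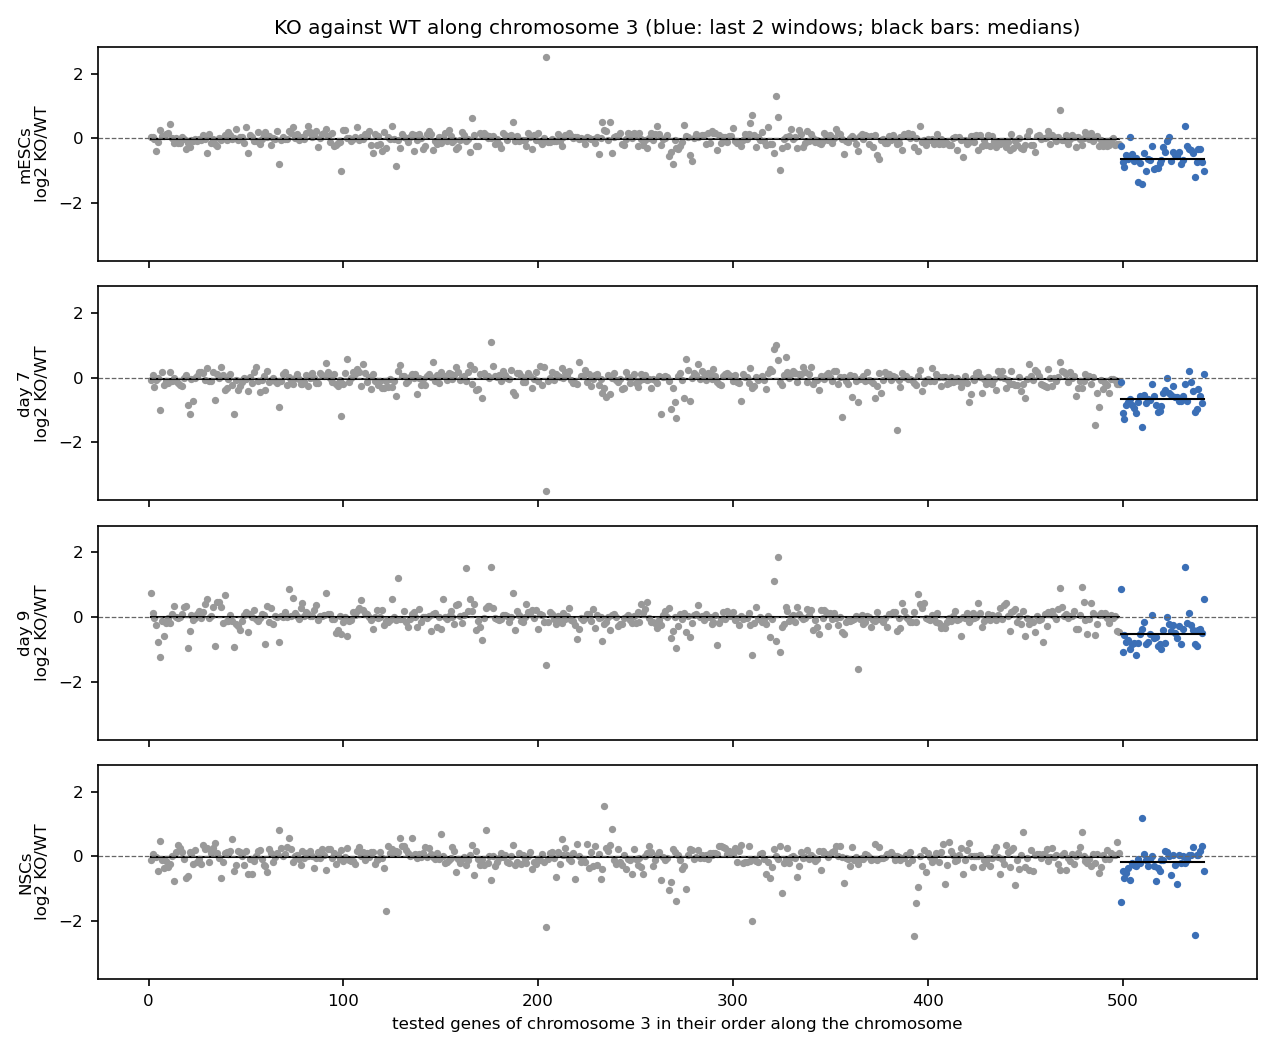
Points are the 542 tested genes of chromosome 3 in their order along the chromosome, by log2 difference of KO against WT in mESCs, day 7, day 9 and NSCs, with black bars at the medians of the last 2 windows (blue) and of the rest (grey). Of the 44 blue genes 41, 42, 38 and 28 lie below 0 in this order, with medians of −0.62, −0.66, −0.52 and −0.16, and the rest of the chromosome has a day 7 median of −0.03.

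The genes called at day 7 were followed to the other stages. In mESCs 25 of the 341 lower genes were also lower, 2 were higher, and none of the 153 higher genes was called, where 0.441% of all tested genes were called lower and 0.0692% higher. The difference of KO against WT changed between mESCs and day 7 for 224 genes (1.94% of those tested), and 180 of them were among the 494 called at day 7. Such tests share the day 7 libraries with the calls. At day 9, which shares no library with day 7, 419 of the 494 genes (84.8%) had the same sign. Of the 494, 195 were also called at day 9 in that direction, 60 higher and 135 lower, and 11 were called in the other direction. Of all tested genes, 2.4% were called higher and 3.58% lower at day 9. The difference itself changed between day 7 and day 9 for 191 genes (1.65%), of which 79 were among the 494. Between day 7 and NSCs it changed for 615 genes (5.32%), of which 260 were among the 494.

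Of the 97 named genes called at day 7, 49 were called in the same direction at day 9 with no change that passed the test, 30 changed between the days, and 18 were neither called at day 9 nor changed. Of the 30, 19 were not called at day 9, 7 were called in the same direction and 4 in the other. Foxa2, Shh and Nkx6-2 stayed lower, by 2.85, 2.85 and 3.21 on the log2 scale, and Wnt1, Emx2 and Otx2 stayed higher, by 2.71, 2.01 and 1.41, and the test of a change between the days passed for none of these 6 (adjusted p from 0.54 to 1). Cer1, Noto and Cfc1 differed by 0.51, 0.06 and 0.05 at day 9, and the change from day 7 passed the test (adjusted p = 6.7e-07, 4.6e-07 and 6.8e-06). In WT cells Cer1 had gone from 69.4 ± 30.3 to 1.67 ± 0.602 FPKM (SD, n = 3) between the days, and Noto was listed at 0 in every WT library of day 9. En1 differed by 0.09 at day 9, with 1.33 ± 0.773 FPKM in WT and 1.50 ± 0.838 FPKM in KO libraries (SD, n = 3), and its change from day 7 passed the test (adjusted p = 0.0018). The cilia factor Foxj1 differed by −0.32 at day 9, and its change passed the test (adjusted p = 0.0024). T and Tal2, a basic helix-loop-helix gene, had smaller differences that were still called, from −5.26 and 2.93 at day 7 to −1.80 and 1.31 at day 9 (adjusted p of the change = 0.00403 and 0.0235). Rspo3 and Vat1l turned from −2.46 and 1.44 to 2.06 and −1.20, and the call of Vat1l at day 7 was lost with a pseudocount of 0.1 (adjusted p = 0.112). Msx3 and Wnt8b had larger differences, from 1.28 and 1.50 at day 7 to 4.25 and 2.86 at day 9, and both changes passed the test (adjusted p = 1.3e-05 and 0.003).

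**Figure D5:**
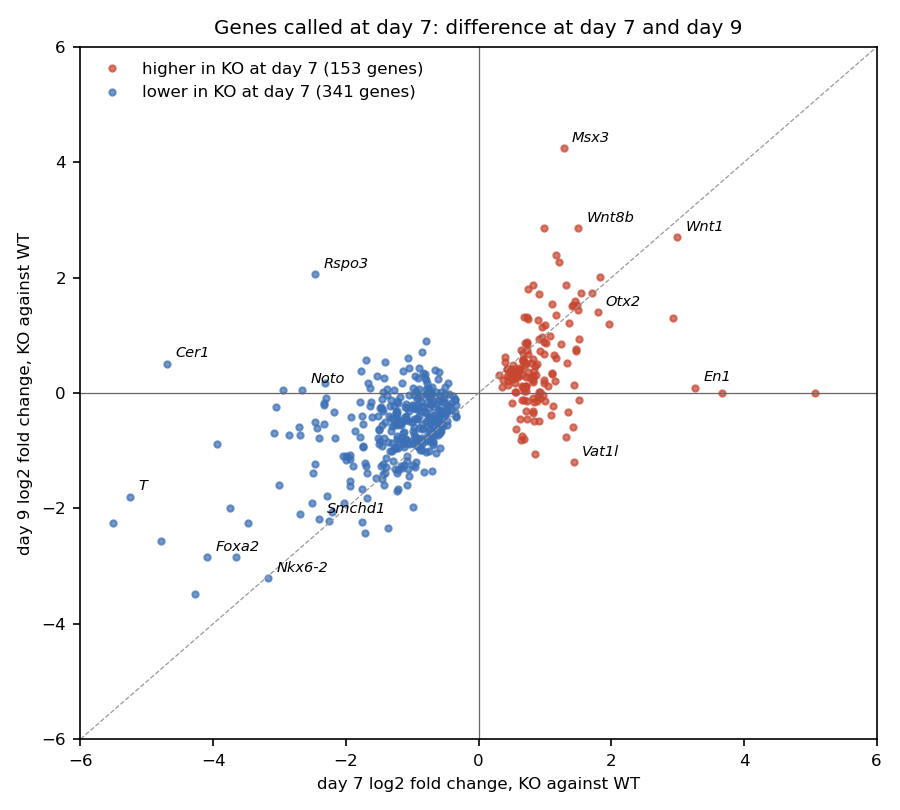
Each point is 1 of the 494 genes called at day 7, by its log2 difference of KO against WT at day 7 (x axis) and at day 9 (y axis), in red if higher and in blue if lower at day 7, with the dashed line where both are equal. Of the 494 points 419 have the same sign on both axes, and Rspo3 lies far on the other side, at −2.46 and 2.06.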

How the data were processed

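The authors made stranded poly(A) libraries, sequenced them as single-end reads, trimmed them (Trim Galore 0.6.6), aligned them to mm9 (TopHat2 2.1.1), discarded rRNA and X-linked reads and estimated expression with Cuffdiff. Each library has a column of deposited FPKM values. The library normalization and counting by strand are not given in the sources used here. Of 36 FPKM columns 12 belong to no sample here and were not used. Groups and replicate numbers came from the sample labels.

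Each of the 8 groups had a mean in a limma 3.58.1 fit of log2(FPKM + 1) over 24 libraries (R 4.3.3, statmod 1.5.0, eBayes with a trended and robust prior). Tests were two-sided, p-values were adjusted by the Benjamini-Hochberg method over all 11566 genes, and a call was an adjusted p under 0.05. The SE is that of the fit. An exact permutation test of 3 against 3 libraries cannot go below p = 0.1. No replicate block was used, since the study's methods name none. Alternatives were another pseudocount or filter, other scalings, the day 7 libraries alone, a replicate block, other variance settings and leaving out each library. In 126 tested entries several gene symbols share a row.

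The members and lists were chosen with earlier results of these data known. Named were Smchd1, the 15 most increased and the 15 most decreased called genes of at least 5 FPKM in the higher group without overlap, the 6 most changed called members of each list and its 2 most abundant members not called. Some of these are not reported here. Cilia, placental and synaptic lists, X-box and windows were added after the data had been seen, as were genes named for them.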

Additional observations from a re-analysis of the deposited data

Results flagged for a closer look

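For 11 genes the KO against WT difference was called in one direction at day 7 and in the other at day 9, and a test of the change between the days passed for each. The change, day 9 minus day 7 on the log2 scale, was 4.52 for Rspo3, 1.71 for Ncald and 1.56 for Rnf125, which were lower in KO cells at day 7 and higher at day 9. It was -2.64 for Vat1l, -2.08 for Fam57b, -1.91 for Stmn3, -1.47 for Cadm3, -1.45 for Cend1, -1.40 for Rgmb, -1.20 for the Mirg entry and -1.07 for the entry of Snrpn and Snurf, which were higher at day 7 and lower at day 9. Rspo3 went from 7.69 ± 1.54 to 0.825 ± 0.251 FPKM in WT cells and from 0.568 ± 0.165 to 6.84 ± 2.75 FPKM in KO cells between the days (SD, n = 3). Stmn3, Cadm3 and Cend1 encode neuronal proteins. Vat1l stood at 1.93, 0.998 and 1.30 FPKM in WT and at 7.34, 4.63 and 4.69 FPKM in KO libraries at day 7, and its day 7 call was lost with a pseudocount of 0.1 (adjusted p = 0.112). The day 7 call of 7 of the 11 genes was lost in at least 1 alternative, and those of Rspo3, Ncald, Rnf125 and the entry of Snrpn and Snurf were lost in none that tested them.

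Over all tested genes, the KO against WT difference at day 7 differed from that in mESCs for 224 genes, from that at day 9 for 191 and from that in NSCs for 615.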

How the results depend on the processing

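The 494 genes called at day 7 became 244 when a mean of at least 5 FPKM was asked for, 312 without WT replicate 2 and 574 without WT replicate 1, the range of leaving out 1 library. Genes whose difference changed from mESCs (224) became 87 with the 5 FPKM limit, and 134 to 278 with 1 library left out. Those that changed from day 9 (191) became 67 with a pseudocount of 0.1, 394 with no filter, 65 with the 5 FPKM limit and 127 to 202 with 1 library left out, and those that changed from NSCs (615) became 352 with the 5 FPKM limit and 360 to 602. The stricter limit tests fewer genes, and the causes of the other moves were not tested. Scaling to the same sum gave 118 higher and 352 lower genes at day 7, and 386 positive and 158 negative changes from NSCs in place of 337 and 278. With the 5 FPKM limit the changes from NSCs were 161 positive and 191 negative, so the majority had the other sign. No pairing is given by the labels beyond shared numbers: deviations of same-numbered WT and KO libraries correlated at 0.1002, 0.0817 and 0.0385, each library best with its own number. A replicate block gave 711 genes at day 7 (241 higher), 346 changed from mESCs, 248 from day 9 and 982 from NSCs. The 5 FPKM limit left 4 mesoderm, 4 forebrain, 3 Hox, 3 cilia and 3 prolactin genes called. The Smchd1 difference ranged from -1.74 to -2.66, and its call held in all alternatives. Of 96 named called genes 34 kept their call in all 16 alternatives, 27 kept it in those that tested them, being below a stricter limit in the others, and 35 lost it in at least 1. None changed sign. Of the 494 calls 211 held in every alternative that tested the gene, and 106 of the 266 genes tested in all 16 held in all. WT and KO being 1 line each, and the depth of the libraries being known here only in relative terms, limit what these counts can show.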

Other observations

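A list of genes of synapses and neuronal membranes was drawn up after the values had been seen. Of 56 listed genes 44 were tested, 26 were called higher in KO cells at day 7, 2 (Vamp2 and Nsg2) were lower and 16 were not called, with a median log2 difference of 0.71. Of all tested genes, 1.32% were called higher and 2.95% lower at day 7. Cdk5r2, an activator of the neuronal kinase CDK5, was at 3.01, 1.86 and 1.62 FPKM in WT and at 7.42, 7.14 and 7.13 FPKM in KO libraries. Iglon5, a cell adhesion protein of neurons, was at 4.97, 3.43 and 4.61 FPKM in WT and at 10.5, 11.3 and 9.56 FPKM in KO libraries. No KO library overlapped a WT library in either gene. Summed over the list, WT replicates 1 to 3 had 302, 286 and 280 FPKM and KO replicates had 420, 402 and 405 FPKM. The count of called genes was 11 without WT replicate 3, 14 without WT replicate 2, 17 without KO replicate 1, and 18 without KO replicate 2 or KO replicate 3. At day 9, 3 of these genes were higher and 5 lower, against 2.4% and 3.58% of all tested genes.

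On chromosome 16, 294 of 369 tested genes (79.7%) had a difference below 0 at day 7, against 49.9% of all tested genes. Of the 369, 17 (4.61%) were called lower and none higher, against 4.27% of all tested genes called in either direction and 2.95% called lower. The median was -0.14 at day 7, -0.10 in mESCs, -0.16 at day 9 and 0 in NSCs, whereas the day 7 medians of the other 18 autosomes lay between -0.04 and 0.04.

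Gm3002, Gm10406, Gm5796 and Gm3696 on chromosome 14 rose by 1.70, 1.49, 1.45 and 1.17 at day 7 and differed by 1.74, 1.52, 1.60 and 1.35 at day 9. Gm3002 was at 6.54, 7.48 and 5.33 FPKM in WT and at 20.7, 22.4 and 26.5 FPKM in KO libraries. These loci have near-identical copies, so which copy gave the reads is uncertain. The call of Gm3696 was lost with a pseudocount of 0.1.

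The fitted rises of the small RNA entries Mir1894 and Snora75 were the largest of all, but both were listed at 0 in all WT libraries and in 1 KO library, and each lies within another gene.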
